A study of Mus musculus with 4 samples.

Results

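The genes described here encode subunits of mitochondrial respiratory complexes I, II, III and V. They were taken from the mouse Clariom S array by symbol: Nduf followed by a, b, c, s or v and a digit, the 4 Sdh subunits, Cyc1, and symbols starting with Uqcr or Atp5. This gave 67 genes of the 19505 named genes, 1 probe set each, with 37 in complex I, 4 in complex II, 9 in complex III and 17 in complex V. All 67 passed the filter on low values (a mean reading of at least 5.30, the median over genes) and so lay among the 9753 genes tested. Complexes I and II pass electrons from NADH and succinate to ubiquinone, and complex III passes them on to cytochrome c. Complexes I and III pump protons as they do so, and complex V, the ATP synthase, uses the proton gradient to make ATP. The heart draws most of its ATP from this chain, and after birth its muscle cells turn from glycolysis toward the oxidation of fatty acids.

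Heart RNA came from outbred ICR (Jcl:ICR) mice that had received 5 μl of a Tbx6 vector preparation or of phosphate-buffered saline (PBS) at postnatal day 1. The 4 arrays were PBS and Tbx6 at day 7, and PBS and Tbx6 at day 30 after that injection, with 1 array for each. Per the labels the dose went under the dorsal skin, although another label field speaks of the heart. With PBS as the control, the vector and the gene it carries cannot be told apart. How many hearts made up a sample, and of which sex, is not given here. Readings are log2 values, and arrays have no read depth, so the number of arrays limits the precision. The day comparison had both injections as its only repeat and was tested with limma, with p-values adjusted by Benjamini-Hochberg over the 9753 genes and a threshold of 0.05. A gene is said to have risen or fallen only where it passed. With 1 residual degree of freedom, each standard error (SE) rested mostly on variance borrowed from other genes.

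The heart label was checked against markers. All 8 cardiomyocyte markers, Myh6, Tnnt2 and Ryr2 among them, were above the highest background probe set of every array, and 0 of 8 passed the day test. That count says little, because 5 of the 8 (Myh6, Tnnt2, Actc1, Pln and Myl2) read within 0.5 of the highest value on the arrays, 19.93. A difference may not show in full there, which was not tested. Actc1 and Pln gave the same reading on every array, while Myh6, Tnnt2 and Myl2 varied a little. Markers of other cells of the heart were read too. The endothelial receptor genes Cdh5 and Kdr fell by 0.91 and 1.03 (2 of 4 endothelial markers), the collagen genes Col1a1 and Col3a1 fell by 3.57 and 3.32 (2 of 3 fibroblast markers), and 2 of 3 macrophage markers rose, such as the receptor gene Csf1r by 1.69. The erythroid gene Alas2, the 1 marker of its list measured here, fell by 2.09. In whole-heart RNA, fewer cells of a type and less RNA per cell cannot be told apart, and the part of these cells in the results on the respiratory genes was not tested.

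Most of the respiratory genes read higher at day 30 than at day 7. Of the 67, 26 rose and 0 fell. Over all genes tested, the shares that rose and fell were 14.2% and 12.1%, against 38.8% and 0 among the respiratory genes. The median difference, day 30 minus day 7, was 0.60 on the log2 scale, where that of all genes tested was -0.02. Both day 30 readings lay above both day 7 readings for 50 of the 67, which held for 32.7% of all genes tested. The reverse held for 1 of the 67, Ndufa4l2, and for 33.5% of all genes. The PBS array of day 7 gave the lowest of the 4 readings for 52 of the 67, and was the lowest for 23.8% of all genes tested.

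The size of the rise depended on the scaling and on the genes tested. After quantile normalisation the median difference was 0.38 and 16 of the 26 genes kept their call, and 16 were also called when all 19505 genes were tested. With an intensity trend in the variance, 37 were called. Under every setting tried, 14 passed: Sdha, Sdhb, Uqcrc2, Uqcrfs1, Ndufs4, Ndufs6, Ndufs7, Ndufs8, Ndufa9, Ndufb2, Ndufb5, Ndufb6, Atp5e and Atp5pb. Quantile normalisation evens out the upper end of the arrays, where the reading exceeded by 1% of all genes was 15.89 and 15.88 at day 7 and 16.17 and 16.14 at day 30.

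**Figure D1:**
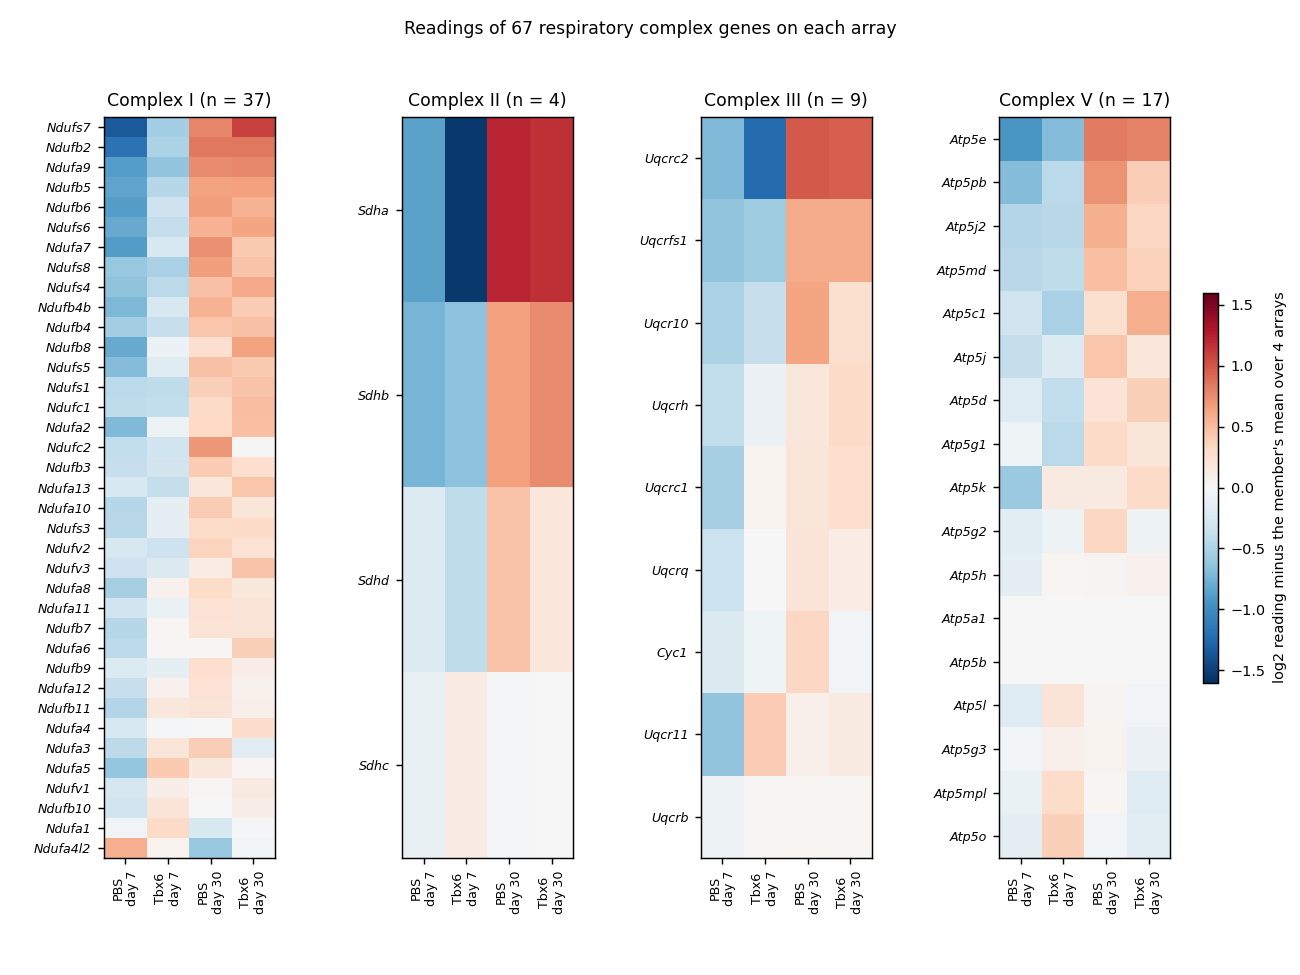
Each row is 1 of the 67 genes and each column 1 of the 4 arrays; colour gives the log2 reading minus that gene's mean over the arrays, with rows ordered by the day difference within each complex. Both day 30 columns were above both day 7 columns for 50 genes, and the PBS array of day 7 was the lowest for 52.

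Promoter sequence from RefSeq (GRCm38.p6), 250 bases before to 50 after the start of each gene, was found for 56 of the 67 genes. It was searched on both strands for 4 short motifs of factors known to act on mitochondrial genes, and no 2 different motifs overlapped in these promoters. The NRF1 motif (GCGCA, any base, GCGC) was present for 16 of the 56 (28.6%), against 952 of 7905 tested genes and 5.19% of all genes with a promoter. It was held by 5 of the 23 genes that rose and by 11 of the 33 others. The YY1 motif AAGATGGCG was present for 7 of the 56 (12.5%), against 3.63% of tested genes and 1.64% of all, in 6 of the 23 genes that rose and 1 of the 33 others. The ETS motif CCGGAAGT was present for 4 of the 56 (7.14%), below its share of tested genes (9.17%) and above that of all (4.31%). The ERR motif TCAAGGTCA was present for 2, Atp5g3 and Sdhd (3.57%), against 0.354% of tested genes and 0.466% of all. Both motifs were in 0 of the genes that rose. These shares describe the letters in this window, without a test.

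The 120 bases before the start are shown for Sdha, which rose most and held 3 NRF1 matches, for Ndufs6, Ndufb4 and Ndufs5, which also rose with such matches, and for Atp5g3, which had no call and held an ERR match there, besides an NRF1 match elsewhere in the searched sequence. Atp5c1, which also rose and held an NRF1 match, is not shown. All those shown lie on the minus strand and are written 5′ to 3′ along the gene, with motif letters in capitals.
Sdha, chr13:74350241-74350360: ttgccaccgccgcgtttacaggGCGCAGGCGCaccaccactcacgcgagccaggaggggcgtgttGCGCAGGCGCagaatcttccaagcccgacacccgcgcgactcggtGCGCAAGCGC
Ndufs6, chr13:73328483-73328602: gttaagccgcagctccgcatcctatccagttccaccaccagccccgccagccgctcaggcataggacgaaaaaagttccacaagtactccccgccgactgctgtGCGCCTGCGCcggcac
Ndufb4, chr16:37654369-37654488: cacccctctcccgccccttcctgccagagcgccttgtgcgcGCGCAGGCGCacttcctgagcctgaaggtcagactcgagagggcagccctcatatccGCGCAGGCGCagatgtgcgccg
Ndufs5, chr4:123718187-123718306: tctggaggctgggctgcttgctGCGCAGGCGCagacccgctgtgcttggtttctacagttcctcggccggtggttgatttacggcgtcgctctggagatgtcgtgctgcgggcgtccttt
Atp5g3, chr2:73911327-73911446: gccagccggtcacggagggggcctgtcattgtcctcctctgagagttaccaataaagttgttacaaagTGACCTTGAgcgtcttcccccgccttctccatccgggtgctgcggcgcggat

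The letters of the YY1 motif contain ATG, the start codon, and whether a match is also the start of translation was not tested. The YY1 matches lay mostly just after the start of the gene, 6 of 7 of them, on the strand of the gene. They are shown with their flanks within the 300-base window, the match in capitals, because 6 of the 7 belong to genes that rose; Atp5j, whose match lies before the start, differed by 0.60 without a call.
Ndufs7, chr10:80249463-80249491, plus strand: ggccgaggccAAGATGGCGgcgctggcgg
Ndufa9, chr6:126849097-126849125, minus strand: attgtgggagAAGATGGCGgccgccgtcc
Ndufs6, chr13:73328433-73328459, minus strand: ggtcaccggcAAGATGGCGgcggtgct
Ndufs4, chr13:114388045-114388069, minus strand: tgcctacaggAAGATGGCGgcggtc
Atp5j2, chr5:145191500-145191528, minus strand: ccaggacttcAAGATGGCGtcactcggtg
Ndufc1, chr3:51408915-51408943, minus strand: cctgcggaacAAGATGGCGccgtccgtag
Atp5j, chr16:84835046-84835074, minus strand: aagtgtaggaAAGATGGCGgagtcttagc

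Complex II held the largest rise. Sdha, the flavoprotein that oxidises succinate, read 11.36 (PBS) and 10.67 (Tbx6) at day 7, then 13.43 and 13.39 at day 30. Both day 30 readings stood far above both day 7 readings, and Sdha rose by 2.39 (SE 0.27, adjusted p = 0.000507, limma), a 5.25-fold difference. Sdhb, the iron-sulphur subunit that takes the electrons from Sdha, read 15.13 and 15.22 at day 7 and 16.53 and 16.63 at day 30. Sdhb rose by 1.41 (SE 0.24, adjusted p = 0.0042, limma). Its readings after Tbx6 were above those after PBS by 0.092 at day 7 and 0.104 at day 30. The membrane anchors, which bind haem and ubiquinone, did not pass the test. Sdhd read 14.99 and 14.81 at day 7 and 15.66 and 15.38 at day 30, a difference of 0.62 (SE 0.24, adjusted p = 0.0916, limma) without overlap between days. Sdhc read 13.64 and 13.89 at day 7 and 13.74 and 13.76 at day 30, so that its day 30 readings lay within the range of day 7.

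In complex III, 3 of 9 genes rose and the median difference was 0.47, which became 0.21 after quantile normalisation. Uqcrc2, a core subunit on the matrix side, read 10.84 (PBS) and 10.33 (Tbx6) at day 7, then 12.54 and 12.51 at day 30. It rose by 1.94 (SE 0.26, adjusted p = 0.00116, limma), a 3.83-fold difference. Its partner Uqcrc1 read 15.57 and 16.16 at day 7 and 16.30 and 16.37 at day 30, a difference of 0.47 (SE 0.26) that did not pass. Of the subunits that carry electrons, Uqcrfs1, the Rieske iron-sulphur protein, rose by 1.19 (SE 0.24, adjusted p = 0.00874, limma), with readings of 14.02 and 14.08 at day 7 and 15.24 on both arrays of day 30. Cyc1, cytochrome c1, read 12.06 and 12.22 at day 7 and 12.62 and 12.24 at day 30. The Cyc1 reading after Tbx6 at day 30 was thus hardly above that after Tbx6 at day 7.

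Among the 5 small subunits of complex III, Uqcr10 rose, with readings of 12.57 and 12.71 at day 7 and 13.71 and 13.33 at day 30 and a difference of 0.88 (SE 0.26, adjusted p = 0.037, limma). This call was lost after quantile normalisation and without the expression filter. Uqcrh, the acidic hinge protein that helps cytochrome c to dock, read 17.34 and 17.63 at day 7 and 17.91 and 18.04 at day 30. It differed by 0.49 (SE 0.24, adjusted p = 0.171, limma), with no overlap between days. Uqcrq and Uqcr11 differed by 0.34 and 0.23. Uqcrb read 19.16 and 19.26 at day 7 and 19.27 and 19.26 at day 30, close to the highest value on the arrays, 19.93.

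Complex I, whose matrix arm oxidises NADH and whose membrane arm pumps protons, had 16 of 37 genes that rose and a median difference of 0.63. The calls of Ndufa2, Ndufb4b, Ndufc1, Ndufs1 and Ndufs5 were lost both after quantile normalisation and without the expression filter. Ndufb4 lost its call after quantile normalisation, and Ndufb8 without the filter. Ndufa7 lost its call when only genes above background on all 4 arrays were tested, which left it out. In the Q module, which hands electrons to ubiquinone, 3 of 5 rose. Ndufs7, which holds the last iron-sulphur cluster before ubiquinone, read 13.26 (PBS) and 14.07 (Tbx6) at day 7, then 15.39 and 15.70 at day 30. Ndufs7 rose by 1.88 (SE 0.26, adjusted p = 0.00135, limma), a 3.69-fold difference. Ndufa9, an accessory subunit of this module, rose by 1.52 (SE 0.25, adjusted p = 0.00311, limma), with 13.20 and 13.45 at day 7 and 14.84 and 14.85 at day 30. Ndufs8, which holds further iron-sulphur clusters, rose by 1.12. Ndufs3 differed by 0.60 and did not pass, while Ndufa5 read 14.27 and 15.31 at day 7 and 15.07 and 14.93 at day 30, so that its days overlapped.

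The N module takes up electrons from NADH, and 5 of its 10 genes rose. These were Ndufs6 (1.18), Ndufs4 (1.08), the iron-sulphur subunit Ndufs1 (0.84), Ndufa2 (0.80) and Ndufa7. Ndufa7 read 5.04 and 5.68 at day 7 and 6.67 and 6.36 at day 30. Both day 7 readings were at background (not above the highest background probe set of their array). The Ndufa7 call came from these readings as they stand, a difference of 1.15 (SE 0.29, adjusted p = 0.0213, limma). Measured from the background level instead, Ndufa7 differed by at least 0.73, and whether that value would pass was not tested. The subunits at the entry of electrons did not pass: Ndufv1, which binds NADH, differed by 0.17 and Ndufv2 by 0.59. Ndufv3, a small subunit known in a short and a long form, read 8.71 and 8.80 at day 7 and 9.15 and 9.49 at day 30, a difference of 0.57 (SE 0.25, adjusted p = 0.124, limma). One probe set does not separate those forms. Differences of Ndufa6 and Ndufa12 were 0.40 and 0.30.

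In the distal membrane arm 6 of 11 genes rose. Ndufb2, an accessory subunit, read 10.92 and 11.60 at day 7 and 12.94 on both arrays of day 30, and rose by 1.68 (SE 0.27, adjusted p = 0.00295, limma). Ndufb5 read 13.53 and 13.92 at day 7 and 15.02 on both arrays of day 30, and rose by 1.30 (SE 0.25, adjusted p = 0.00699, limma). For both genes the arrays of day 30 agreed to the second decimal while those of day 7 did not. Ndufb6 rose by 1.22, Ndufb8 by 0.91, and Ndufb4 and its near copy Ndufb4b by 0.92 and 0.97. Whether the probes tell the copies apart was not tested, so both values are uncertain. The other 5 differed by 0.11 (Ndufb10) to 0.66 (Ndufb3).

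The proximal membrane arm had 2 of 9 genes that rose, Ndufs5 (0.88) and Ndufc1 (0.80), and a median of 0.61. Ndufc2 read 14.94 and 15.02 at day 7 and 16.04 after PBS and 15.35 after Tbx6 at day 30. It differed by 0.71 (SE 0.28, adjusted p = 0.0899, limma), and its PBS reading of day 30 stood apart from the other arrays. Ndufa3 read 16.42 and 17.04 at day 7 and 17.24 and 16.66 at day 30, so the higher injection was not the same on both days. Ndufa1, an X-linked subunit, was 1 of 2 complex I genes with a negative difference. Its readings were 12.70 and 13.05 at day 7 and 12.49 and 12.73 at day 30, a difference of -0.26 (SE 0.24, adjusted p = 0.46, limma). Typical of the complex were Ndufa13 (0.63) and Ndufa10 (0.61).

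Ndufa4 and Ndufa4l2 share the symbol stem, although Ndufa4 was later assigned to cytochrome c oxidase and Ndufa4l2 is known as a paralog that is induced by low oxygen. Ndufa4 read 18.40 and 18.64 at day 7 and 18.66 and 18.95 at day 30, a difference of 0.28 (SE 0.24). Ndufa4l2 ran the other way. It read 8.08 (PBS) and 7.56 (Tbx6) at day 7, then 6.89 and 7.45 at day 30. The difference of -0.65 (SE 0.30, adjusted p = 0.152, limma) did not pass, and it was -1.19 after PBS against -0.11 after Tbx6. Without this pair the median of complex I was 0.66 over 35 genes.

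**Figure D2:**
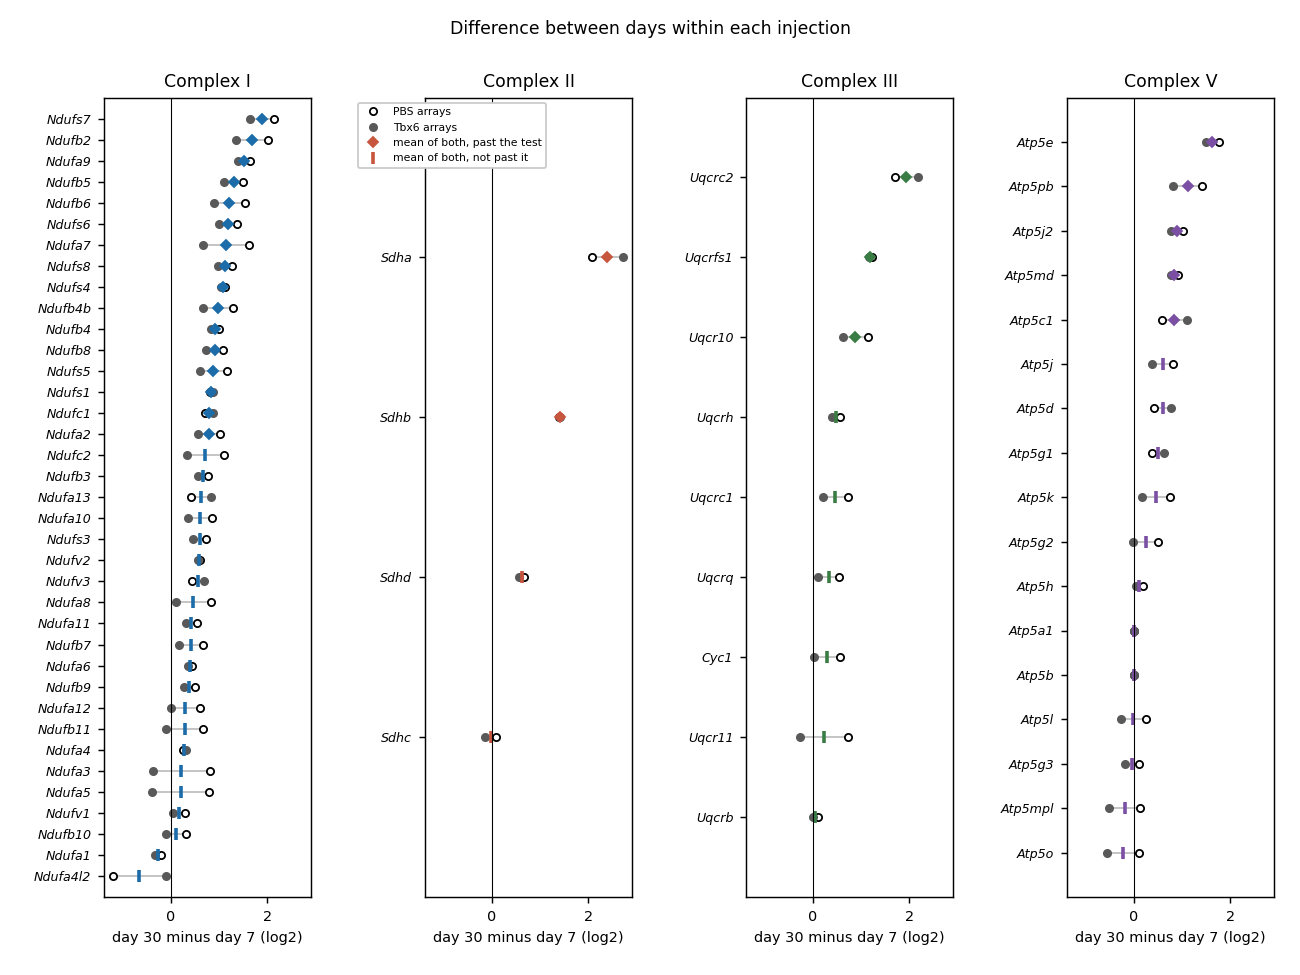
Day 30 minus day 7 on the log2 scale for each gene: open circles are the PBS arrays, grey circles the Tbx6 arrays, diamonds the mean of both for the 26 genes past limma's test and bars the mean for the other 41. The difference is above 0 for 63 genes after PBS and for 51 after Tbx6; Ndufa7 is drawn at its readings, although those of day 7 were at background.

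Complex V had 5 of 17 genes that rose and a median difference of 0.46, or 0.22 after quantile normalisation. In the F1 head and its central stalk, where ATP is made, Atp5e, the epsilon subunit, read 8.70 and 8.94 at day 7 and 10.46 and 10.43 at day 30. It rose by 1.63 (SE 0.25, adjusted p = 0.00223, limma), a 3.09-fold difference. Atp5c1, the gamma subunit that turns in the head, rose by 0.84 (SE 0.26, adjusted p = 0.0438, limma), and Atp5d differed by 0.60. The Atp5c1 call was lost after quantile normalisation and without the expression filter. The catalytic subunit Atp5b and its partner Atp5a1 read 19.90 and 19.91 on every array. They stood within 0.5 of the highest value on the arrays, 19.93, where a difference may not show. Both count among the 41 genes without a call.

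The 3 genes Atp5g1, Atp5g2 and Atp5g3, all measured here, encode the c subunit of the rotor ring, and their mature proteins are identical. Atp5g1 read 18.41 and 18.05 at day 7 and 18.78 and 18.68 at day 30, a difference of 0.50 (SE 0.25, adjusted p = 0.166, limma) without overlap between days. Atp5g2 read 15.39 and 15.47 at day 7 and 15.89 and 15.46 at day 30. Atp5g3 read 17.43 and 17.56 at day 7 and 17.53 and 17.38 at day 30. For Atp5g2 and Atp5g3 the days overlapped, with differences of 0.25 and -0.04, and 0 of the 3 genes passed.

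Of the 4 peripheral stalk genes, whose proteins hold the head still, Atp5pb rose. The b subunit gene Atp5pb read 15.70 and 15.97 at day 7 and 17.12 and 16.79 at day 30, and rose by 1.12 (SE 0.26, adjusted p = 0.0158, limma). Atp5o, which joins the stalk to the head, read 16.62 (PBS) and 17.16 (Tbx6) at day 7, then 16.73 and 16.60 at day 30. The highest Atp5o reading came after Tbx6 at day 7, and the day difference was -0.22 (SE 0.27). Atp5j and Atp5h differed by 0.60 and 0.12.

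Among the 5 small membrane subunits, which link the synthase into dimers or stabilise it, Atp5j2 and Atp5md rose. Atp5j2 read 17.59 and 17.61 at day 7 and 18.62 and 18.39 at day 30, and rose by 0.90 (SE 0.25, adjusted p = 0.0279, limma). Atp5md read 17.03 and 17.08 at day 7 and 17.96 and 17.84 at day 30, and rose by 0.84 (SE 0.24, adjusted p = 0.0344, limma). Both calls were lost after quantile normalisation and without the expression filter. Atp5mpl and Atp5l also had their highest reading after Tbx6 at day 7. Atp5mpl read 16.79 and 17.19 at day 7 and 16.92 and 16.69 at day 30, and Atp5l read 13.38 and 13.80 at day 7 and 13.63 and 13.54 at day 30. Their day differences were -0.18 (Atp5mpl) and under 0.01 in size (Atp5l), and that of Atp5k was 0.46.

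The day differences were also read by the level of the readings. Of the 46 genes tested whose mean reading was 18 or higher, 8.70% rose, and the median size of their day difference was 0.14 in either direction. For the 998 genes with means from 12 to 16 these values were 22.5% and 0.60. For the 4460 genes with means below 8 they were 10.9% and 0.41, so a low share that rose was not particular to the upper range. In the upper range lay 9 of the respiratory genes, of which 2 rose, and in the middle one 29, of which 15 rose. Between 16 and 18, where 21.7% of all genes rose, 5 of 17 respiratory genes did. Whether differences of the most abundant subunits are understated was not tested.

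**Figure D3:**
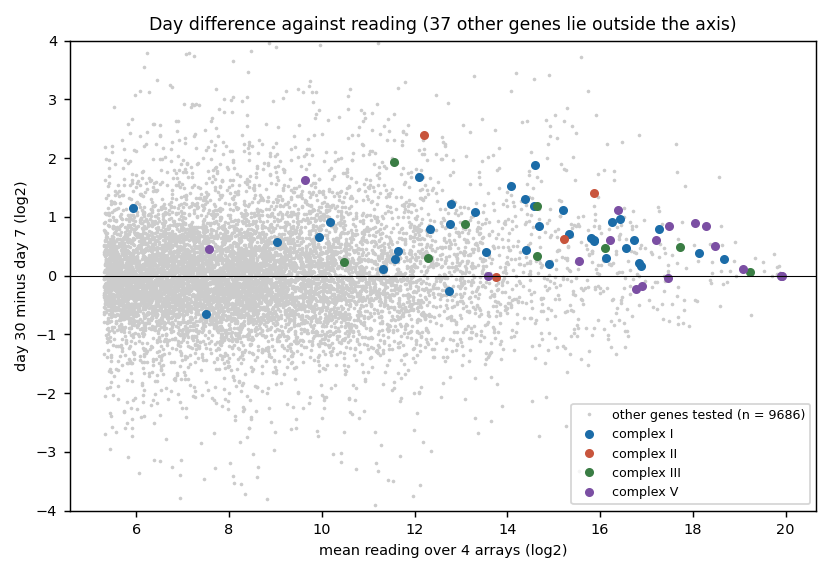
Day 30 minus day 7 (vertical axis, log2) against the mean reading over the 4 arrays (horizontal axis, log2), with the 67 respiratory genes in colour over the other genes tested in grey. Differences narrow toward readings of 18 and above, where Atp5a1 and Atp5b stand at 0.

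Other genes of the pathway were read from lists. Of 26 tested assembly factors, which help to build these complexes and are not part of the finished enzymes except for the acyl carrier subunit Ndufab1, 8 rose (30.8%) and 0 fell, where 14.2% of all genes tested rose and 12.1% fell. Bcs1l, which inserts the Rieske protein Uqcrfs1 into complex III, rose by 3.02 (SE 0.26, adjusted p = 0.000182, limma), with readings of 8.04 and 7.26 at day 7 and 10.76 and 10.58 at day 30. Uqcc1, also of complex III, rose by 1.81, and Atpaf1, which assembles the F1 head, by 1.69. Of the 29 assembly factors listed, 3 were below the filter on low values. Of 15 genes for electron carriers and coenzyme Q synthesis, 9 rose (60.0%) and 0 fell, against the same shares of all genes. Coq10a (1.84) and Coq5 (1.56) were among them. Of the 13 nuclear subunits of complex IV, 2 rose and 2 fell (15.4% each), shares near those of all genes tested. Cox7a1 and Cox8b, heart and muscle forms, rose by 3.14 and 1.05. Cox6a1 and Cox8a, forms found in most tissues, fell (-1.21 and -1.06), while Cox6a2, the muscle form beside Cox6a1, differed by 0.08 without a call.

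**Figure D4:**
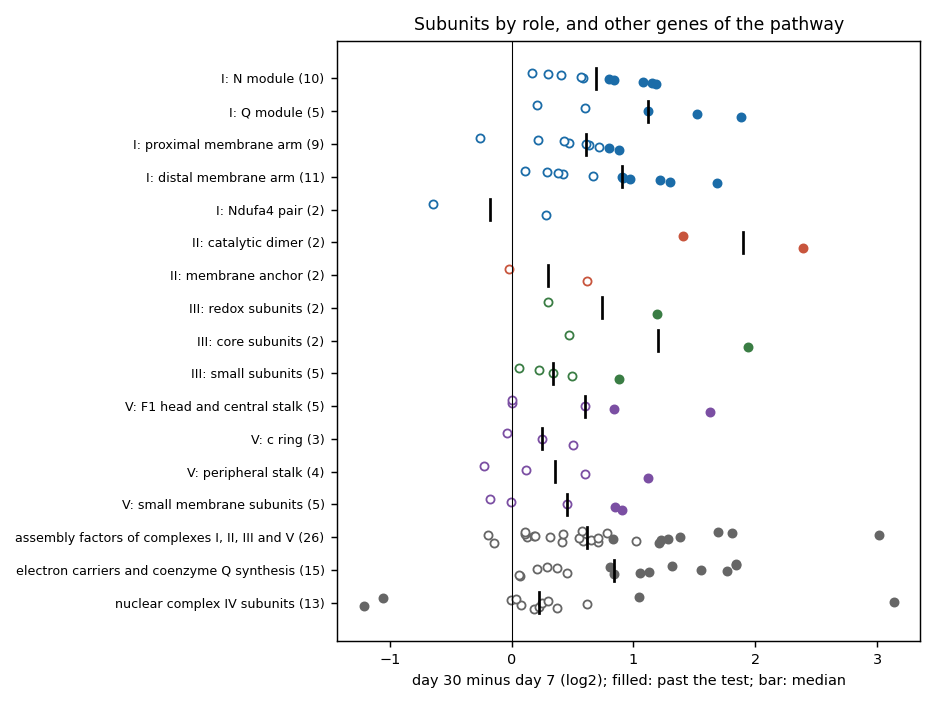
Day 30 minus day 7 (log2) for the subunits grouped by role and for 3 lists of other pathway genes, with numbers of genes in brackets; filled points passed limma's test and black bars are medians. Both genes of the catalytic dimer of complex II are filled, 0 of the 3 c ring genes are, and complex IV has filled points on both sides of 0.

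Tbx6 was then compared with PBS. By limma's model over both days, 0 of 9753 genes passed for injection (0.0%), of which 421 had an unadjusted p under 0.05, and 0 of the 67 respiratory genes had such a p. The 2 days were therefore read separately, as differences between single arrays without a test.

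At day 7 most respiratory genes read higher after Tbx6. The reading was higher for 56 of 67, lower for 9 and equal for 2, where 47.7% of all genes tested were higher, and the median difference was 0.23 against -0.02 over all genes. At least 1.5-fold higher were 12 of the 67 (7.23% of all genes) and at least 1.5-fold lower was 1 (8.41% of all genes). Uqcr11, a small subunit of complex III, read 9.85 after PBS and 10.90 after Tbx6, a difference of 1.05. On both arrays of day 30 Uqcr11 read 10.57 and 10.63, so the PBS array of day 7 was the 1 low array. Ndufa5 differed by 1.04, Ndufs7 by 0.81 and Ndufb8, which read 9.37 and 10.09, by 0.72. For Ndufa5 the highest reading came from Tbx6 at day 7. For Ndufs7 and Ndufb8 the Tbx6 reading of day 7 lay between the PBS reading of day 7 and both readings of day 30.

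The lower genes at day 7 were led by Sdha (-0.68), Ndufa4l2 (-0.53) and Uqcrc2 (-0.51). Sdha and Uqcrc2 were thus lowest on the Tbx6 array of day 7, although they were among the genes that rose most between days. By complex, the median difference at day 7 was 0.38 for complex I, with 34 of 37 higher, 0.16 for complex III, with 8 of 9 higher, and 0.13 for complex V, with 12 of 17 higher. For complex II it was -0.04, with 2 of 4 higher. The Tbx6 reading of day 7 lay between PBS at day 7 and a higher PBS reading at day 30 for 46 of the 67, and for 19.3% of all genes tested. That count requires PBS to be higher at day 30, which held for 63 of the 67 but for 4782 of the 9753 genes tested. It also reuses the PBS array of day 7, so it is no further evidence of a difference between injections.

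Markers of other tissues differed between the same arrays. Ucp1, the uncoupling protein of brown fat, a tissue rich in mitochondria, read 11.92 on the PBS array of day 7 against 7.60 after Tbx6. The adipocyte list as a whole averaged 8.83 and 7.66, with 5 of 7 markers above background on each. Its markers did not all go the same way. Cidea, the 1 of 5 tested adipocyte markers that was higher after Tbx6, read 8.45 and 8.98, and Fabp4 was nearly level at 17.10 and 17.06. The lung epithelial list averaged 7.13 on the PBS array and 3.87 on the Tbx6 array, with 3 of 6 markers above background on the former (Scgb1a1 at 12.89) and 0 on the latter. Sftpb, Sftpc and Sftpa1, which define alveolar epithelium, were at background on the PBS array of day 7. The erythroid gene Alas2 read 12.52 on the PBS array and 10.73 on the Tbx6 array, a difference of -1.79. Fast skeletal muscle markers were at background on all 4 arrays, 0 of 5 being above it. The part of these tissues and cells in the difference between injections was not tested. Without the PBS arrays, the day difference of the respiratory genes had a median of 0.47 and was above 0 for 51 of 67, and without the Tbx6 arrays the median was 0.73 and 63 of 67 were above 0.

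Within one injection the complexes kept their direction, with different sizes. For PBS and Tbx6 in turn, the median day difference was 0.81 and 0.57 for complex I, 1.04 and 0.99 for complex II, 0.72 and 0.21 for complex III, and 0.42 and 0.17 for complex V. These gaps rest on the same arrays as the differences between injections and are no further evidence of them.

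At day 30 the median difference over the respiratory genes was close to 0. The reading was higher after Tbx6 for 29 of 67 and lower for 36, with 50.9% of all genes tested higher, and the median was -0.01. At least 1.5-fold higher were 0 of the 67 (7.13% of all genes) and at least 1.5-fold lower was 1 (6.06% of all genes), Ndufc2 at -0.69. Next were Ndufa3 (-0.57) and Atp5g2 (-0.42). Higher after Tbx6 were Ndufa4l2 (0.55), Ndufb8 (0.37) and Ndufa6 (0.36), which read 13.12 and 13.56 at day 7 and 13.56 and 13.92 at day 30. The medians by complex were 0.00 for complex I, with 19 of 37 higher, and -0.01 for complexes II and III, with 2 of 4 and 4 of 9 higher. Complex V leaned lower after Tbx6, with a median of -0.11, 4 of 17 genes higher, 11 lower and 2 equal at the top of the range. Ucp1 was at background after PBS at day 30 and read 8.34 after Tbx6, with an adipocyte list average of 7.36 against 8.75.

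The 2 days share no array, so their values can be set side by side. Of the 67 genes, 25 were higher after Tbx6 on both days, 5 were lower on both, 31 were higher at day 7 and lower at day 30, and 4 were lower and then higher. None was at least 1.5-fold higher on both days (0 of 67). Across the 67 genes the differences on the 2 days had correlations near 0, given as a description (Pearson -0.03, Spearman 0.03, n = 67), over genes that are not independent and come from the same arrays. Whether the difference between injections itself differed between days could not be tested with 1 array for each.

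**Figure D5:**
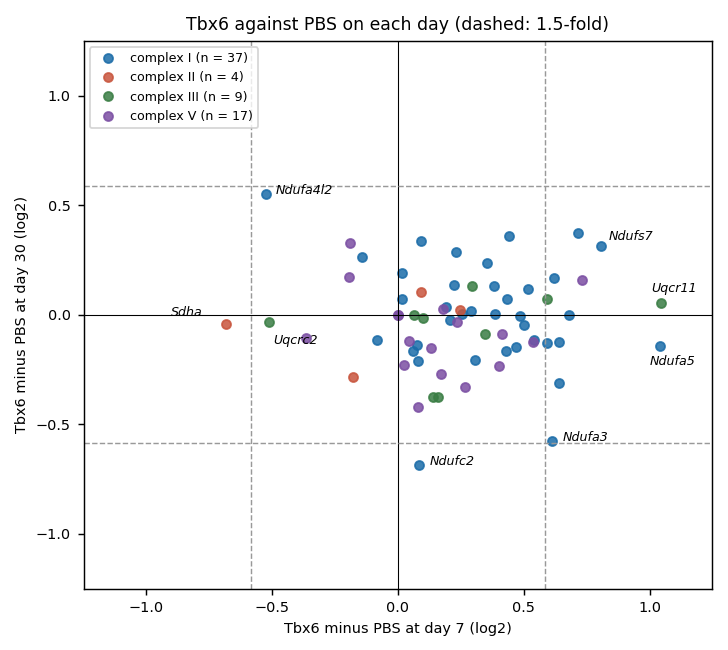
Tbx6 minus PBS at day 7 (horizontal axis, log2) against the same at day 30 (vertical axis, log2) for the 67 genes, coloured by complex, with dashed lines at 1.5-fold. At day 7, 12 genes lie beyond the right line and Sdha beyond the left one; at day 30 Ndufc2 alone lies beyond a line.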

How the data were processed

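Heart RNA was measured on 1-colour mouse Clariom S arrays, per the labels. The deposited values, made by the authors with SST-RMA in Affymetrix Expression Console 1.4, per the submitters' processing notes, are taken as log2 from their range, since no base is stated. Of 28846 probe sets, 19572 carry 1 gene symbol in the platform annotation. For genes with several (55) the probe set with the highest mean was kept. Genes with a mean over 4 arrays of at least 5.30, the median, entered limma 3.58.1 in R 4.3.3 (lmFit, eBayes, two-sided, injection and day as terms). A reading at or below its array's highest background probe set is called at background. The limma test took such readings as they stand, and for Ndufa7 the smaller difference from the background level is printed too. Single arrays were compared with a size rule of 1.5-fold. The limma step was also run on simulated data with known day changes and independent noise. Those data hold no shift of a whole array and no upper limit of the readings, so no result here rests on that run. The genes, their role groups and the lists were chosen with earlier results of these data known. Genes named with all 4 readings are, by rule, up to 4 with the most positive and up to 4 with the most negative day coefficients of each complex, any past the injection test, the 3 largest differences either way between injections on each day, the Sdh subunits and isoform pairs. The 3 genes nearest each complex's median serve as typical examples, mostly by their difference alone. Other genes named, among them Cyc1, Uqcrb and Ndufa7 with all 4 readings, were chosen after their values were seen. Sequences and figures used Python 3.11.15, pandas 2.3.3 and matplotlib 3.10.9.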

Additional observations from a re-analysis of the deposited data

How the results depend on the processing

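The 26 rising genes became 16 after quantile normalisation and 16 with no filter on low values; in both, 10 calls were lost and 0 gained, and 0 genes fell under any setting. Quantile normalisation gave median day differences of 0.38 over the 67 genes, 0.78 for complex II, 0.21 for complex III and 0.22 for complex V, and turned the sign of Ndufa5, Ndufv1 and Uqcrb, which had no call. Centring gave 1.05 for complex II and turned Atp5g3, Atp5l and Sdhc, also without a call. PBS arrays alone gave 0.81 for complex I, and Tbx6 arrays alone 0.17 for complex V. For Tbx6 minus PBS, quantile normalisation gave medians of 0.26 (all), 0.18 (complex III) and 0.0654 (complex V) at day 7, and 0.0807 (complex I) and -0.0775 (complex V) at day 30. Without Atp5a1 and Atp5b the complex V median at day 7 was 0.17. At 2-fold, 2 genes were higher and 0 lower at day 7, and 0 lower at day 30. The cause of these changes was not tested. The day comparison was made within each injection; without the injection term, 24 of the 67 genes rose. The labels give no replicate numbers, and each group holds 1 array, so no replicate could be left out.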
